A study of Mus musculus with 3 samples.

Results

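The Teashirt zinc finger family has 3 members in the mouse, *Tshz1*, *Tshz2* and *Tshz3*, and each is a row among the 32285 genes of the 3 deposited matrices. The genes were taken by name and were followed over 43463 nuclei of the prefrontal cortex (PFC), a cortical region of planning and decision making. In the mm10 build *Tshz1* (ENSMUSG00000046982) spans chr18:84011627-84087706 on the minus strand, *Tshz2* (ENSMUSG00000047907) spans chr2:169633013-170071816 on the plus strand, and *Tshz3* (ENSMUSG00000021217) spans chr7:36698118-36773553 on the plus strand. *Tshz2* is the long gene of the family, at 439 kb against 76.1 kb for *Tshz1* and 75.4 kb for *Tshz3*. The GENCODE M21 annotation places 3 other genes on the opposite strand of *Tshz2*, and 4 on the same strand as *Tshz3* and 1 on the opposite strand, and none of these 8 is a row of the matrices.

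Single nucleus RNA-seq (snRNA-seq) counts RNA molecules in nuclei held in droplets, by a molecular identifier (UMI) read at the 3′ end of each RNA. A library was made from pooled PFC for each of 3 groups of male mice, all 6 to 8 weeks old. The C57BL/6J library pooled 5 wild-type mice. The *Nav1* KO library pooled 4 mice of the C57BL/6J strain that lack Nav1, a neuron navigator protein, through a CRISPR deletion in the first exon of the gene. The BTBR library came from BTBR T<+> Itpr3<tf>/J mice, a different inbred strain whose name carries a T and an Itpr3 allele, and the number of mice is not stated in the sources used here. Nuclei were sorted for DNA stain and for NeuN, a neuronal protein, and NeuN-negative nuclei were collected as well. With 1 pooled library per group, genotype, pool and preparation cannot be told apart, and no test between groups is possible. All intervals below are 95% intervals for counting error only, and they do not cover differences between mice.

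Teashirt proteins are named for a Drosophila gene that specifies the trunk. They act mainly as repressors of transcription, through CtBP co-repressors and histone deacetylases, and they work in a network with the homeodomain proteins Meis, Pbx and Pax6. In the forebrain *Tshz1* is required for olfactory bulb interneurons to reach their place in the bulb, and the receptor gene *Prokr2* depends on it there. *Tshz2* is a widely used marker of near-projecting neurons, a sparse class of deep-layer cortical neurons with short-range axons. *Tshz3* is required for deep-layer neurons that send axons out of the cortex, and loss of a copy of it in humans is linked to autism.

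The C57BL/6J, *Nav1* KO and BTBR libraries kept 14630, 14056 and 14777 nuclei. They held 38704723, 50965774 and 48939692 counts, with medians of 2074, 2754 and 2510 UMIs per nucleus. Every triplet of values below is in this order of libraries, and levels are in CPM, counts of a gene scaled to a fixed total of the counts of all genes in the same nuclei. *Nav1* itself was at 345, 264 and 146 CPM. The deletion lies in the first exon and the counted reads lie at the 3′ end of the RNA, so this value does not check the knockout. Nuclei fell into 24 clusters and 18 classes, named from marker lists that hold no *Tshz* gene, and no *Tshz* gene was among the genes used for clustering. The classes were checked against the labels, which give PFC neurons. Non-neuronal classes held 8250 nuclei, medium spiny neuron-like nuclei, a striatal type, held 2657, and bulb-type nuclei (mitral or tufted cell-like, bulb interneuron-like and ensheathing glia-like, all types of the olfactory bulb) held 4470. Bulb-type nuclei made up 1.85%, 16.5% and 12.7% of the 3 libraries, and the library totals below are given with and without them. The libraries shared 66, 59 and 55 cell barcodes, below 0.5% of the nuclei of either library in each pair. Counts of other cell types' genes were plentiful, since *Slc17a7*, a gene of excitatory neurons, ranged from 210 to 448 CPM in the non-neuronal classes, against 530 to 1056 CPM in the cortical excitatory classes. Free RNA and droplets that held 2 nuclei were not measured apart.

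The 3 genes had different distributions over the classes. *Tshz2* was concentrated in mitral or tufted cell-like nuclei and, among cortical neurons, in layer 6-like nuclei. Meningeal fibroblast-like, oligodendrocyte precursor-like and endothelial-like nuclei had pooled *Tshz2* levels similar to those of layer 6-like nuclei. *Tshz1* was highest in bulb interneuron-like nuclei and low in the deep-layer cortical classes. *Tshz3* was present at a low and even level, and its highest pooled values lay among cortical neurons. The family was sparse in single nuclei, since 83.5%, 74.4% and 76.1% of nuclei held no count of any member. Only 12, 48 and 66 nuclei held counts of all 3 members. Levels are compared within a gene and not between genes, since a 3′ count does not correct for how well each RNA is captured.

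**Figure D1:**
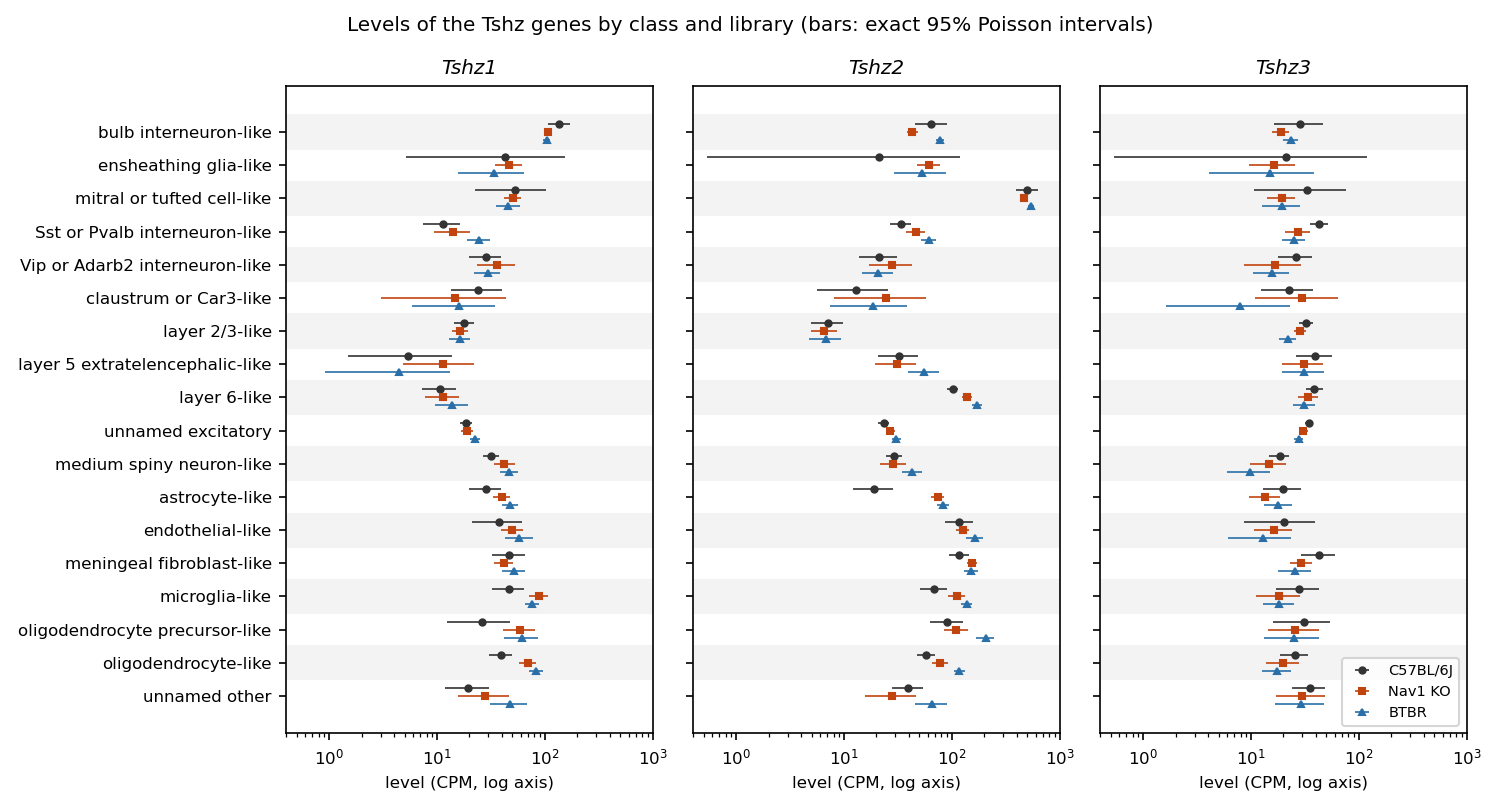
Level of each *Tshz* gene (x axis, CPM on a log axis) in each of 18 classes (y axis), with a black circle for C57BL/6J, an orange square for *Nav1* KO and a blue triangle for BTBR, and bars for exact 95% Poisson intervals. *Tshz2* at 469 to 542 CPM in mitral or tufted cell-like nuclei and *Tshz1* at 104 to 136 CPM in bulb interneuron-like nuclei stand above the other classes. For *Tshz1* in *Nav1* KO the interval overlaps that of microglia-like nuclei. *Tshz3* spans a narrow range.

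*Tshz2* was highest in mitral or tufted cell-like nuclei, which hold the markers of the output neurons of the olfactory bulb (*Eomes*, *Cdhr1* and *Doc2g* among their leading genes). These were 39, 535 and 362 nuclei. Their *Tshz2* level was 499 CPM (393–624), 469 CPM (442–497) and 542 CPM (504–583). The 3 libraries had similar levels, and the C57BL/6J interval covers both other values. The ratio to C57BL/6J was 0.939 (0.744–1.20) in *Nav1* KO and 1.09 (0.858–1.40) in BTBR. After each nucleus was thinned to 1000 UMIs, 45.9%, 31.3% and 36.6% of these nuclei held a *Tshz2* count, and unthinned 69.2%, 61.7% and 64.6% did, at median depths of 3314, 3192 and 2775 UMIs. In layer 2/3-like nuclei, the class with the lowest *Tshz2*, the thinned shares were 0.569%, 0.566% and 0.785%, and the unthinned shares were 1.36%, 1.86% and 1.83%, at median depths of 2799, 3434.5 and 2974 UMIs. *Tshz2* thus differed widely between 2 glutamatergic classes of similar depth. Among mitral or tufted cell-like nuclei, those with at least 2 of the 8 mitral or tufted markers had 594, 485 and 581 CPM of *Tshz2*, and those with fewer had 320, 398 and 401 CPM.

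Among cortical neurons, *Tshz2* was highest in layer 6-like nuclei, the class named from corticothalamic markers such as *Tle4*, *Hs3st4*, *Rprm* and *Col12a1*. Over 1254, 941 and 882 nuclei it measured 102 CPM (91.1–114), 139 CPM (125–153) and 171 CPM (155–189), and 5.72%, 9.26% and 9.42% of nuclei held a count at 1000 UMIs (8.61%, 13.1% and 11.3% unthinned). The intervals of the 3 libraries did not overlap for the level. Most of this signal came from few nuclei. Nuclei with at least 1 count of the near-projecting markers *Sla2*, *Slc17a8*, *Trhr*, *Rapgef3* and *Vwc2l* were 6.94%, 9.56% and 9.07% of layer 6-like nuclei, and they held 52.2% (46.6–57.8), 55.1% (50.0–60.1) and 60.6% (55.8–65.3) of the *Tshz2* counts of the class. Pooled, 257 of 3077 nuclei held 635 of 1127 counts. Median depth with and without such a marker was 2381 and 2197 UMIs in C57BL/6J and 2928.5 and 2654 UMIs in *Nav1* KO. In BTBR it went the other way, at 2294.5 and 2531.5 UMIs. Over the 3 libraries the medians were 2452 and 2429 UMIs.

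The level of *Tshz2* in layer 6-like nuclei followed the number of near-projecting markers in the same nucleus. Without any of them *Tshz2* was at 52.9 CPM (44.8–62.0), 70.0 CPM (60.1–81.2) and 74.1 CPM (63.3–86.4). With exactly 1 marker, in 79, 76 and 59 nuclei, it was at 582 CPM (484–694), 616 CPM (526–717) and 772 CPM (645–917). With 2 or more markers, in 8, 14 and 21 nuclei, it was at 1386 CPM (995–1880), 1225 CPM (906–1619) and 2435 CPM (2027–2901). At this last step 74.4% of the 43 nuclei held a *Tshz2* count at 1000 UMIs, against 4.32% of the layer 6-like nuclei without such a marker. All 3 libraries showed the same order, and the 3 steps did not overlap in any of them. The most *Tshz2* counts in a layer 6-like nucleus were 14, 15 and 13, and all nuclei with 2 or more markers held 41, 49 and 125 counts. A single nucleus could thus weigh on this last level in C57BL/6J and *Nav1* KO. The intervals do not cover differences between nuclei. The same 43 nuclei held no *Tshz1* count, which allows a level of up to 24.8 CPM at 3 counts, and *Tshz3* was at 41.3 CPM in them. The near-projecting split of these nuclei was chosen after their values were seen and is a description. *Rapgef3* does not mark near-projecting nuclei alone here, since it was at 201 CPM in mitral or tufted cell-like nuclei. In layer 6-like nuclei it was at 8.13 CPM, against 7.93 CPM in the unnamed excitatory clusters. *Sla2* was at 0.837 CPM in layer 6-like and 1.42 CPM in layer 2/3-like nuclei. *Vwc2l* was found in the most layer 6-like nuclei of these markers, 157 of 3077.

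**Figure D2:**
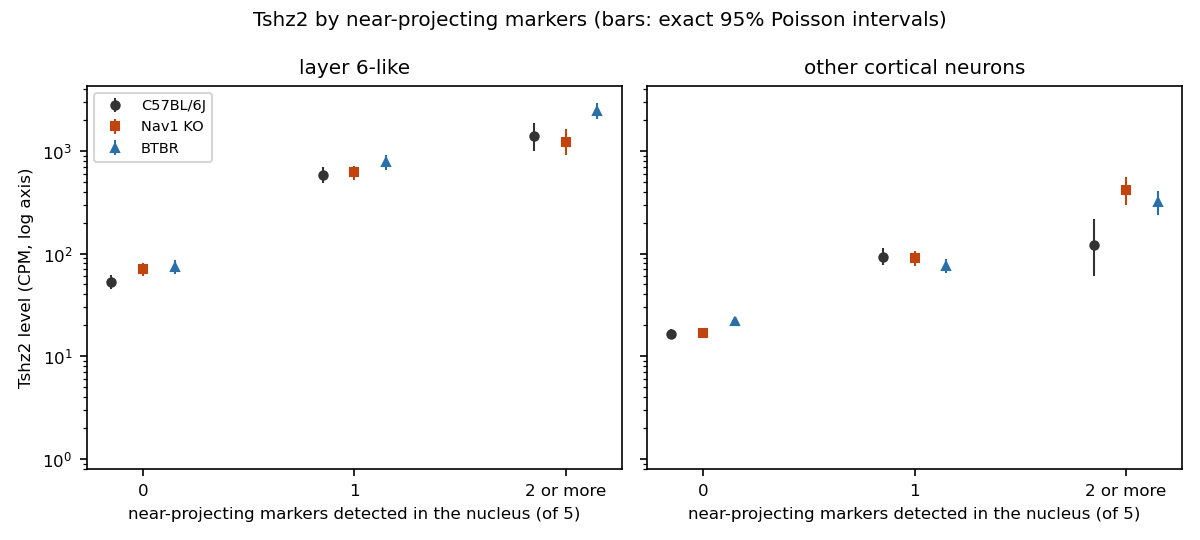
*Tshz2* level (y axis, CPM on a log axis) by the number of near-projecting markers found in the same nucleus (x axis: 0, 1, or 2 or more of 5), in layer 6-like nuclei on the left and in the other cortical neurons on the right, with a symbol for each library and bars for exact 95% Poisson intervals. In layer 6-like nuclei the level goes from 52.9 to 74.1 CPM without a marker to 1225 to 2435 CPM with 2 or more, and in other cortical neurons from 16.6 to 22.2 CPM to 122 to 413 CPM.

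The other cortical neurons had lower levels. Their *Tshz2* was at 16.6, 16.7 and 22.2 CPM without a near-projecting marker, 93.3, 90.0 and 75.6 CPM with exactly 1, and 122, 413 and 315 CPM with 2 or more. The last group held only 15, 11 and 30 nuclei, which were deeper (medians of 4608, 5085 and 5760.5 UMIs against 2143, 3113 and 2635 UMIs without a marker), and in C57BL/6J its interval (61.0–219) overlapped that of nuclei with exactly 1 (76.8–112). A finer clustering (resolution 2) divided layer 6-like nuclei further. A cluster led by *Ccn2*, a gene of layer 6b, the deepest cortical neurons, held 129, 196 and 158 of them and had 238, 383 and 360 CPM of *Tshz2*. The cluster led by *Col12a1*, a corticothalamic marker, held 941, 627 and 628 nuclei and had 80.0, 89.5 and 139 CPM. Within the *Ccn2*-led cluster the nuclei with a near-projecting marker were at 1015, 1171 and 1387 CPM and those without were at 107, 158 and 159 CPM. The difference by near-projecting markers was thus found in the *Ccn2*-led cluster as well. These finer splits too were chosen after the values were seen. By counts of the layer 6b and corticothalamic marker lists in single nuclei, the 41, 64 and 35 layer 6-like nuclei with more layer 6b counts had 42.8, 104 and 11.2 CPM of *Tshz2*, from 5, 19 and 1 counts, and those with more corticothalamic counts had 105, 137 and 179 CPM.

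*Tshz2* was found at intermediate levels in non-neuronal classes. It measured 118, 155 and 151 CPM in meningeal fibroblast-like nuclei, cells of the brain's covering. In endothelial-like nuclei it was at 118, 126 and 164 CPM. In oligodendrocyte precursor-like nuclei it was at 90.6, 110 and 206 CPM. These 3 classes stood next to layer 6-like nuclei in the order of pooled levels (148, 139, 135 and 135 CPM), and microglia-like nuclei followed at 68.5, 111 and 137 CPM (117 CPM pooled). No neighbours among these 5 classes differed beyond their counting intervals. Below them, beyond the intervals, lay oligodendrocyte-like nuclei, at 58.1, 77.8 and 117 CPM. In astrocyte-like nuclei the level was 19.1, 73.9 and 83.3 CPM, with C57BL/6J well below the other libraries.

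The inhibitory and the remaining excitatory classes held less *Tshz2*. *Sst* or *Pvalb* interneuron-like nuclei were at 33.8, 46.4 and 61.1 CPM, with 40.6, 43.6 and 75.3 CPM in those with more *Sst*-list counts and 22.0, 10.6 and 41.4 CPM in those with more *Pvalb*-list counts. Vip or Adarb2 interneuron-like nuclei were at 21.0, 27.6 and 20.7 CPM. Bulb interneuron-like nuclei were at 64.6, 43.1 and 77.3 CPM, and ensheathing glia-like nuclei at 21.3, 61.1 and 52.9 CPM, the first of these from 25 nuclei. Medium spiny neuron-like nuclei were at 29.0, 28.7 and 42.7 CPM. Among cortical excitatory classes, layer 5 extratelencephalic-like nuclei were at 32.6, 31.0 and 55.2 CPM. They are named for neurons that project out of the telencephalon, the part of the forebrain that holds the cortex. The unnamed excitatory clusters were at 23.3, 27.0 and 30.5 CPM, claustrum or Car3-like nuclei at 12.9, 24.7 and 18.5 CPM, and layer 2/3-like nuclei at 7.10, 6.55 and 6.81 CPM. Layer 2/3-like nuclei were the lowest class in all 3 libraries, and pooled they lay below their neighbour in the order, claustrum or Car3-like nuclei, at 6.78 CPM (5.64–8.08) against 16.6 CPM (10.2–25.7). A further 879 nuclei without a class name, led by *Aldoc*, ribosomal and mitochondrial genes, had 39.1, 28.0 and 65.3 CPM.

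The summed level of the 8 mitral or tufted markers (*Eomes*, *Tbx21*, *Cdhr1*, *Lhx1*, *Lhx5*, *Nmb*, *Barhl2* and *Doc2g*) was set beside *Tshz2* in every class. Whether free RNA carries these genes in the proportion found in nuclei was not tested. In mitral or tufted cell-like nuclei the sum was 985, 1333 and 1496 CPM, so that each marker count came with 0.507, 0.352 and 0.362 *Tshz2* counts. In layer 6-like nuclei the sum was 37.1, 60.5 and 94.5 CPM and the ratio was 2.75, 2.29 and 1.81. There *Doc2g* gave most of the marker counts in C57BL/6J and *Nav1* KO, with 88, 123 and 112 counts, and *Cdhr1* had 7, 20 and 91. *Nmb* had 17, 16 and 21 counts, *Eomes* had 1, 10 and 4, and *Tbx21* was at 0 in all 3 libraries. In meningeal fibroblast-like nuclei the ratio was 3.38, 1.81 and 2.18, in endothelial-like nuclei 3.92, 1.53 and 1.53, and in oligodendrocyte precursor-like nuclei 1.59, 1.39 and 2.33. In these 4 classes *Tshz2* was thus more abundant per marker count than in mitral or tufted cell-like nuclei of the same library. This was not particular to them. The ratio was 0.913, 0.561 and 0.679 in *Sst* or *Pvalb* interneuron-like nuclei and 0.594, 0.475 and 0.384 in the unnamed excitatory clusters. In medium spiny neuron-like nuclei it was 0.675, 0.466 and 0.451. In the remaining cortical classes it was not above that of mitral or tufted cell-like nuclei in every library. The ratio was nearer to that of mitral or tufted cell-like nuclei in microglia-like nuclei (1.04, 0.796 and 0.603), oligodendrocyte-like nuclei (1.29, 0.561 and 0.572) and astrocyte-like nuclei (0.453, 0.853 and 0.835). In all 6 non-neuronal classes the marker sum was higher in *Nav1* KO and BTBR than in C57BL/6J. It was 65.9, 139 and 228 CPM in microglia-like, 45.1, 139 and 205 CPM in oligodendrocyte-like, and 42.1, 86.7 and 99.8 CPM in astrocyte-like nuclei. In endothelial-like nuclei it was 30.1, 82.3 and 107 CPM, in meningeal fibroblast-like nuclei 34.8, 85.3 and 69.3 CPM, and in oligodendrocyte precursor-like nuclei 56.96, 79.2 and 88.5 CPM. Among the cortical neuron classes the sum was higher in both libraries as well, with the exception of claustrum or Car3-like nuclei (51.6, 44.4 and 71.2 CPM), as in *Sst* or *Pvalb* interneuron-like nuclei at 37.0, 82.7 and 90.0 CPM and the unnamed excitatory clusters at 39.2, 56.8 and 79.6 CPM. The part of these markers' RNA in the *Tshz2* values was not tested. In layer 2/3-like nuclei the ratio was 0.186, 0.135 and 0.0984, below that of mitral or tufted cell-like nuclei in all 3 libraries, with a marker sum of 38.3, 48.5 and 69.3 CPM.

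**Figure D3:**
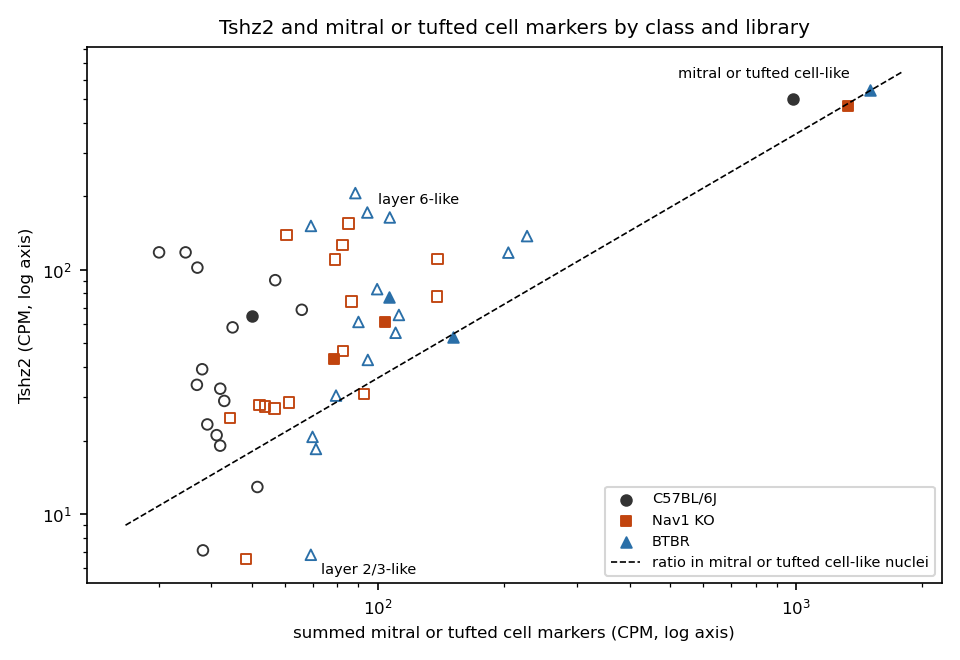
*Tshz2* level (y axis, CPM) against the summed level of 8 mitral or tufted cell markers (x axis, CPM), both on log axes, with a point for each class and library, filled for bulb-type classes. The dashed line is the ratio of pooled mitral or tufted cell-like nuclei, 0.360 *Tshz2* counts per marker count. Layer 6-like points lie above the line and layer 2/3-like points below it.

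*Tshz1* was highest in bulb interneuron-like nuclei, which hold markers of the inhibitory neurons of the olfactory bulb (*Pbx3* and *Cpa6*, or *Th* and *Trh*, among their leading genes). The class was not purely inhibitory by its counts. It held the excitatory gene *Slc17a7* at 395, 523 and 566 CPM. The inhibitory neuron genes *Gad1* and *Gad2* together were at 360, 384 and 346 CPM. In 206, 1373 and 1417 nuclei *Tshz1* measured 136 CPM (107–171), 107 CPM (98.8–115) and 104 CPM (96.6–112). The ratio to C57BL/6J was 0.784 (0.617–1.01) in *Nav1* KO and 0.764 (0.603–0.982) in BTBR. This direction rested on how the class was drawn. At clustering resolution 0.5 the ratios were 1.23 (0.974–1.56) and 1.14 (0.904–1.44), and with classes set by the marker counts of single nuclei they were 1.73 (1.40–2.16) and 1.82 (1.47–2.27), with C57BL/6J the lowest at 50.9 CPM. *Tshz1* counts were found in 13.8%, 13.4% and 14.6% of nuclei at 1000 UMIs and in 25.2%, 29.1% and 30.6% unthinned, at median depths of 1559, 2431 and 2403 UMIs. In layer 6-like nuclei, where *Tshz1* was among the lowest, the thinned shares were 1.11%, 0.686% and 0.979% (2.39%, 2.44% and 3.40% unthinned), at median depths of 2210, 2656 and 2518.5 UMIs. Pooled, the level in bulb interneuron-like nuclei was 107 CPM (101–112), and the next class, microglia-like nuclei, lay below it at 73.9 CPM (65.8–82.8). Within *Nav1* KO the intervals of these classes overlapped, with microglia-like nuclei at 87.9 CPM (71.2–107). *Tshz1* was itself among the 10 genes that led the larger of the 2 bulb interneuron-like clusters by fold, although the clustering did not use it.

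Bulb interneuron-like nuclei were not uniform for *Tshz1*. In the finer clustering 120, 915 and 770 of them fell in a cluster led by *Adamts19*, and there *Tshz1* was at 253 CPM (190–330), 155 CPM (142–170) and 202 CPM (183–222), with a count in 21.4%, 18.6% and 22.9% of nuclei at 1000 UMIs. In the cluster led by *Trh* and *Th*, genes of the dopaminergic interneurons of the glomerular layer, *Tshz1* was at 28.1, 11.9 and 40.5 CPM in 18, 218 and 182 nuclei, the first of these values from a single count. The pooled levels in these subsets were 176 CPM (165–188) and 23.7 CPM (16.1–33.6). A further 18, 85 and 247 nuclei joined a cluster of very deep nuclei, with a pooled median of 10667.5 UMIs, and had 55.0, 61.1 and 61.3 CPM. They made up 350 of the 2996 nuclei of the class. Scrublet, a caller of droplets that held 2 nuclei, marked only 1, 1 and 0 nuclei of the 3 libraries and so did not work on these data. No nucleus was removed on its call, and the part of such droplets in these values was not tested. Nuclei with a count of *Meis1* or *Pbx3* had 166, 116 and 114 CPM of *Tshz1* and nuclei with neither had 73.2, 71.0 and 65.8 CPM, a split also chosen after the values were seen.

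*Tshz1* was found at lower levels in non-neuronal classes. Microglia-like nuclei had 46.1, 87.9 and 76.6 CPM, oligodendrocyte-like nuclei 39.1, 69.3 and 83.2 CPM, and oligodendrocyte precursor-like nuclei 25.9, 58.5 and 61.6 CPM. Endothelial-like nuclei had 37.6, 50.0 and 58.0 CPM, meningeal fibroblast-like nuclei 46.8, 41.7 and 51.4 CPM, and astrocyte-like nuclei 28.6, 39.7 and 48.0 CPM. These classes, with mitral or tufted cell-like nuclei (52.5, 50.9 and 45.6 CPM) and ensheathing glia-like nuclei (42.6, 46.7 and 34.0 CPM), formed a run in the pooled order in which no neighbours differed beyond their intervals. The sum of the bulb interneuron markers *Sp8*, *Th*, *Trh* and *Cpa6* was higher in *Nav1* KO and BTBR than in C57BL/6J in all 6 non-neuronal classes. It was highest in *Nav1* KO. Other genes of that marker list had another order. Over all non-neuronal nuclei *Pbx3* was at 107, 174 and 226 CPM and *Meis2* at 435, 618 and 643 CPM, both highest in BTBR. The summed level of *Sp8*, *Th*, *Trh* and *Cpa6*, a set chosen after values were seen, was 27.7, 135 and 105 CPM in microglia-like, 31.5, 142 and 107 CPM in oligodendrocyte-like, and 10.3, 67.0 and 47.3 CPM in astrocyte-like nuclei, against 122, 241 and 143 CPM in bulb interneuron-like nuclei. It was 12.5, 89.3 and 66.99 CPM in endothelial-like, 10.7, 70.8 and 35.8 CPM in meningeal fibroblast-like, and 5.18, 61.96 and 36.6 CPM in oligodendrocyte precursor-like nuclei. *Tshz1* was higher in BTBR than in *Nav1* KO in all non-neuronal classes except microglia-like nuclei, where it was lower. The *Tshz1* intervals of BTBR and *Nav1* KO overlapped in each of the 6 classes. In endothelial-like, oligodendrocyte precursor-like and meningeal fibroblast-like nuclei those of all 3 libraries overlapped. The part of these markers' RNA in the *Tshz1* values was not tested.

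Among striatal and cortical neurons, medium spiny neuron-like nuclei had the most *Tshz1*, at 31.8, 42.2 and 46.9 CPM. In those with a count of *Cacng5*, *Pcdh8* or *Casz1*, markers of eccentric spiny neurons, it was at 46.9, 69.4 and 80.1 CPM, and in the others at 28.8, 33.9 and 37.5 CPM. The other genes of that marker list, *Otof* and *Adarb2*, were left out of this split. The nuclei with more *Drd1*-type than *Drd2*-type marker counts had 41.3, 38.1 and 43.7 CPM, and those with more *Drd2*-type counts 24.2, 42.8 and 48.5 CPM. Vip or Adarb2 interneuron-like nuclei had 28.3, 35.9 and 29.6 CPM, and *Sst* or *Pvalb* interneuron-like nuclei 11.3, 14.0 and 24.5 CPM. Cortical excitatory classes were low throughout. The unnamed excitatory clusters had 18.6, 19.0 and 22.7 CPM, layer 2/3-like nuclei 17.8, 16.4 and 16.3 CPM, claustrum or Car3-like nuclei 24.2, 14.8 and 15.8 CPM, layer 6-like nuclei 10.7, 11.3 and 13.9 CPM, and layer 5 extratelencephalic-like nuclei 5.43, 11.3 and 4.48 CPM. In the pooled order the last 2 classes, at 11.8 CPM (9.62–14.4) and 7.09 CPM (3.97–11.7), lay below layer 2/3-like nuclei at 16.7 CPM (14.9–18.7) and overlapped each other. The nuclei without a class name had 19.6, 28.0 and 47.2 CPM.

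*Tshz3* was spread over the cortex with little difference between classes. Its highest pooled levels were 34.9 CPM (31.0–39.1) in layer 6-like and 34.0 CPM (26.6–42.8) in layer 5 extratelencephalic-like nuclei, the classes of deep projection neurons. By library it measured 38.7, 34.0 and 31.1 CPM in the former and 39.4, 31.0 and 31.3 CPM in the latter. *Sst* or *Pvalb* interneuron-like nuclei had 42.7, 27.1 and 24.8 CPM, the unnamed excitatory clusters 34.6, 30.4 and 27.6 CPM, and layer 2/3-like nuclei 32.4, 28.6 and 22.0 CPM. The lowest pooled level was 15.5 CPM (13.0–18.3) in medium spiny neuron-like nuclei, at 18.4, 14.6 and 9.76 CPM by library. Every neighbouring pair in the pooled order had overlapping intervals, while the 2 ends of the order did not overlap. Within the excitatory cortex the cluster led by *Ndst4* had 15.2, 20.9 and 17.1 CPM, against 38.4, 38.0 and 41.2 CPM in the cluster led by the activity-induced gene *Egr4*.

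Outside cortical neurons *Tshz3* was at similar or lower pooled levels. Meningeal fibroblast-like nuclei had 42.8, 29.1 and 25.7 CPM, the first of these the highest *Tshz3* level of any class in C57BL/6J, with an interval of 29.3–60.4 CPM. Oligodendrocyte precursor-like nuclei were at 31.1, 25.8 and 25.01 CPM. Microglia-like nuclei had 27.7, 18.3 and 18.2 CPM, and oligodendrocyte-like nuclei 25.5, 19.9 and 17.6 CPM. Astrocyte-like nuclei had 19.8, 13.5 and 18.0 CPM, and endothelial-like nuclei 20.04, 16.5 and 12.9 CPM. Among bulb-type classes it was at 28.7, 18.9 and 23.4 CPM in bulb interneuron-like, 32.8, 19.3 and 19.5 CPM in mitral or tufted cell-like, and 21.3, 16.2 and 15.1 CPM in ensheathing glia-like nuclei. Vip or Adarb2 interneuron-like nuclei had 25.9, 16.6 and 15.7 CPM, claustrum or Car3-like nuclei 22.6, 29.6 and 7.92 CPM, and the nuclei without a class name 35.0, 29.8 and 29.0 CPM. At 1000 UMIs a *Tshz3* count was found in 4.35%, 2.86% and 4.28% of layer 6-like nuclei and in 1.09%, 1.52% and 0.917% of medium spiny neuron-like nuclei (8.45%, 9.46% and 7.94%, and 5.45%, 5.87% and 2.59%, unthinned). No class stood out for *Tshz3* as mitral or tufted cell-like nuclei did for *Tshz2*.

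The members were rarely counted in the same nucleus. Over 37724 nuclei thinned to 1000 UMIs, *Tshz1* and *Tshz2* were found together in 53 nuclei, against 60.1 from the product of their shares. *Tshz1* and *Tshz3* were found together in 22 nuclei, against 34.7. *Tshz2* and *Tshz3* were found together in 50 nuclei, against 45.9. These pooled numbers mix classes, and single classes went either way. Within mitral or tufted cell-like nuclei *Tshz1* and *Tshz2* shared 10 nuclei, against 15.9. In the unnamed excitatory clusters *Tshz2* and *Tshz3* shared 18 nuclei, against 8.70. Over the 51 class-by-library points of at least 50 nuclei, the correlation of log2(CPM + 5) was 0.42 between *Tshz1* and *Tshz2*, -0.44 between *Tshz1* and *Tshz3*, and -0.04 between *Tshz2* and *Tshz3*. The points share libraries, depth and counts from other cell types, and the correlations are a description.

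By the same measure over 6946 genes, those most like *Tshz1* were *Meis1* (0.87), a homeodomain factor, *Vipr2* (0.84), a receptor for vasoactive intestinal peptide, *Pbx3* (0.84), a partner of Meis proteins, *Adamts19* (0.80), a secreted protease, and *Btg1* (0.80), an antiproliferative factor. Those most like *Tshz2* were *Ccn2* (0.75), the layer 6b gene, *Smad7* (0.74), an inhibitor of TGF-beta signalling, *Svil* (0.74), an actin-binding protein, *Ss18* (0.74), a chromatin-remodelling subunit, and the predicted gene *Gm15270* (0.74). Those most like *Tshz3* included *Iqgap2* (0.70), a scaffold protein, *Flrt2* (0.69), an axon guidance ligand, *Mical2* (0.68), an actin regulator, and *Khdrbs3* (0.68), a splicing factor. With rank correlation 4, 2 and 4 of the 5 most similar genes stayed among the top 5 of *Tshz1*, *Tshz2* and *Tshz3*. The list of *Tshz2* is thus the least settled of the 3.

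The libraries drew their *Tshz* counts from different nuclei. Bulb-type nuclei gave 9.39% (7.58–11.5), 42.0% (39.8–44.2) and 35.9% (33.9–38.0) of the *Tshz1* counts of C57BL/6J, *Nav1* KO and BTBR. They gave 7.78% (6.46–9.28), 40.1% (38.5–41.7) and 33.2% (31.7–34.7) of the *Tshz2* counts. For *Tshz3* the shares were 1.797% (1.13–2.71), 14.0% (12.1–16.0) and 16.4% (14.2–18.6). Of the counts of all genes, bulb-type nuclei held 1.96%, 18.8% and 16.8%. *Tshz1* and *Tshz2* counts were therefore over-represented in bulb-type nuclei in all 3 libraries, and *Tshz3* counts were under-represented in *Nav1* KO and near the share of all counts in C57BL/6J and BTBR. Cortical neurons gave 55.9%, 26.9% and 30.6% of the *Tshz2* counts, 50.0%, 25.3% and 27.7% of the *Tshz1* counts, and 76.5%, 66.4% and 63.8% of the *Tshz3* counts.

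**Figure D4:**
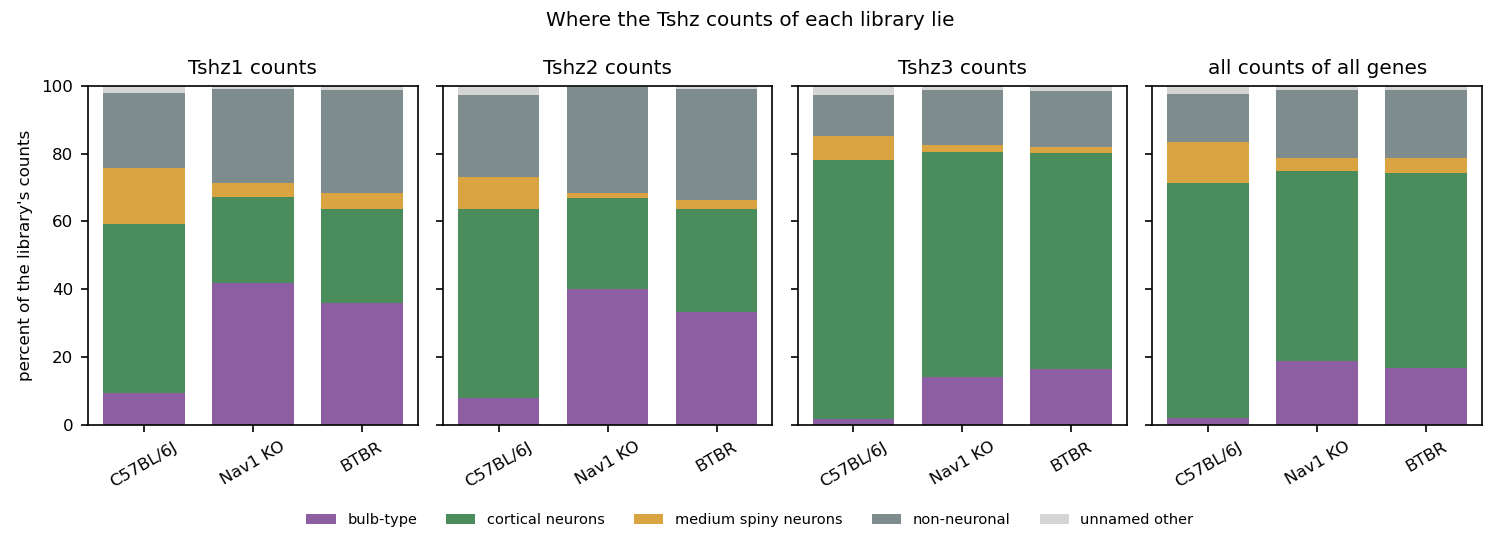
Percent of a library's counts (y axis) that lie in bulb-type nuclei, cortical neurons, medium spiny neurons, non-neuronal nuclei and unnamed other nuclei, as stacked bars for each library, for *Tshz1*, *Tshz2*, *Tshz3* and all genes. The bulb-type part of *Tshz1* and *Tshz2* goes from 9.39% and 7.78% in C57BL/6J to 42.0% and 40.1% in *Nav1* KO, and that of *Tshz3* stays below 17% in all 3 libraries.

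Over all kept nuclei *Tshz1* was at 23.7, 38.4 and 43.2 CPM, *Tshz2* at 37.5, 70.7 and 77.0 CPM, and *Tshz3* at 31.6, 25.1 and 23.1 CPM. In *Nav1* KO the ratio to C57BL/6J was 1.62 (1.501–1.76) for *Tshz1*, 1.88 (1.77–2.00) for *Tshz2* and 0.794 (0.733–0.859) for *Tshz3*. In BTBR it was 1.82 (1.69–1.97), 2.05 (1.93–2.18) and 0.731 (0.673–0.793). These comparisons share the C57BL/6J library. By a size rule of at least 1.5-fold with at least 20 counts in both libraries, 2 of the 3 members were higher and none lower in each comparison. Of all genes with enough counts, 9.30% were higher and 7.37% lower by this rule in *Nav1* KO, and 11.1% were higher and 8.12% lower in BTBR. The median ratio over all genes was 0.966 in *Nav1* KO and 1.03 in BTBR. *Tshz1* stood above 93.0% and 95.2% of genes and *Tshz2* above 95.9% and 97.0%, while *Tshz3* stood above only 19.9% and 11.7%.

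Without bulb-type nuclei the ratios of *Tshz1* and *Tshz2* were smaller. *Tshz1* was then at 21.9, 27.5 and 33.2 CPM, with ratios of 1.26 (1.15–1.37) in *Nav1* KO and 1.52 (1.39–1.66) in BTBR. *Tshz2* was at 35.3, 52.1 and 61.9 CPM, with ratios of 1.48 (1.38–1.58) and 1.75 (1.64–1.88). *Tshz3* was at 31.7, 26.6 and 23.2 CPM, with ratios of 0.839 (0.772–0.911) and 0.733 (0.673–0.799). No member was then past the size rule in *Nav1* KO, where 9.13% of genes were higher and 6.94% lower. The *Tshz2* ratio lay just under the rule there and passed it at 1.59 (1.48–1.70) when mitochondrial genes and *Malat1* were left out of the totals and at 1.76 (1.64–1.88) with classes from single nuclei. In BTBR *Tshz1* and *Tshz2* were still past it, among 11.6% of genes higher and 7.94% lower, and *Tshz1* fell short of it at 1.46 (1.33–1.61) without the nuclei of the highest Scrublet scores. When each library's class levels were weighted by the class make-up of C57BL/6J, the ratios were 1.19 and 1.35 for *Tshz1*, 1.24 and 1.58 for *Tshz2*, and 0.827 and 0.725 for *Tshz3*.

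**Figure D5:**
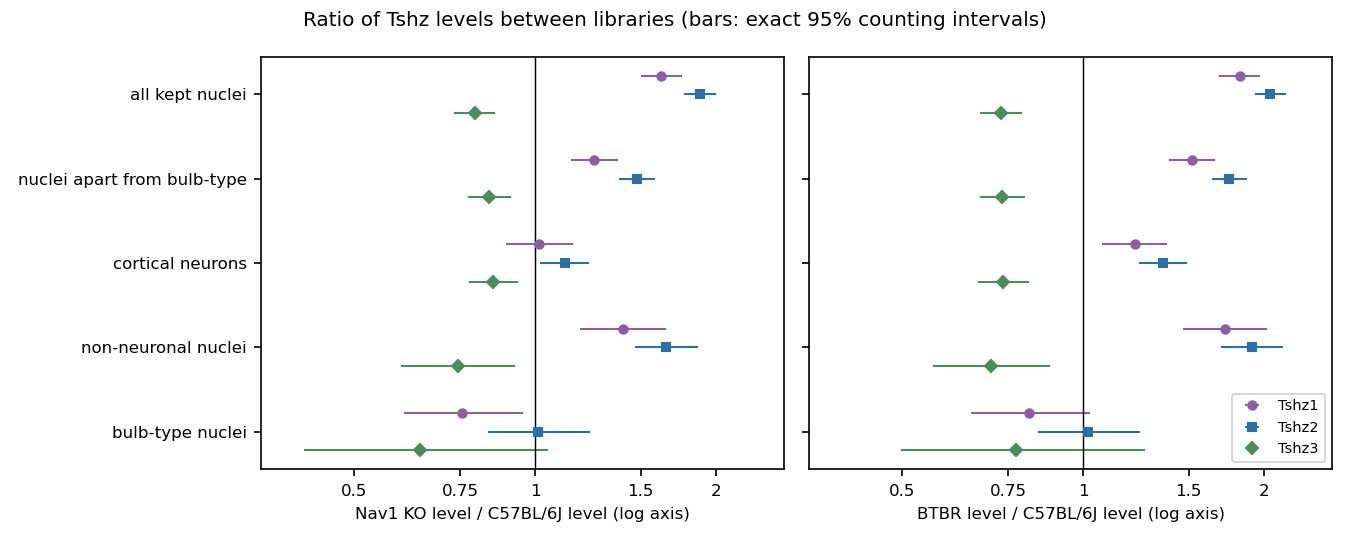
Ratio of the level of each *Tshz* gene to C57BL/6J (x axis, log axis) in *Nav1* KO on the left and BTBR on the right, for all kept nuclei and 4 sets of them (y axis), with bars for exact 95% counting intervals. *Tshz1* and *Tshz2* lie above 1 over all nuclei and nearer to 1 in cortical neurons and bulb-type nuclei, and *Tshz3* lies below 1 in every set.

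Cortical neurons alone gave smaller ratios again for *Tshz1* and *Tshz2*. *Tshz1* was at 17.0, 17.3 and 20.8 CPM, with ratios of 1.02 (0.894–1.16) in *Nav1* KO and 1.22 (1.08–1.38) in BTBR. *Tshz2* was at 30.2, 33.9 and 41.1 CPM, with ratios of 1.12 (1.02–1.23) and 1.36 (1.24–1.49). *Tshz3* was at 34.8, 29.7 and 25.7 CPM, with ratios of 0.852 (0.776–0.936) and 0.737 (0.668–0.813). None of the 3 members was higher by the size rule in cortical neurons, where 3.68% of genes were in *Nav1* KO and 8.24% in BTBR. *Tshz2* in BTBR passed the rule at resolution 2, at 1.56 (1.43–1.70), and with classes from single nuclei, at 1.57 (1.37–1.79). In bulb-type nuclei themselves *Tshz2* did not differ beyond counting error, at 149, 151 and 152 CPM with ratios of 1.01 (0.835–1.24) and 1.02 (0.840–1.25). *Tshz1* was at 114, 85.9 and 92.4 CPM there, with ratios of 0.756 (0.605–0.956) and 0.813 (0.650–1.03), below 1 beyond counting error in *Nav1* KO. This direction too turned with the drawing of the classes, to 1.07 (0.860–1.33) and 1.11 (0.897–1.39) at resolution 0.5 and 1.65 (1.35–2.05) and 1.73 (1.41–2.14) with classes from single nuclei. With the latter the *Tshz2* ratios were 1.40 (1.18–1.66) and 1.54 (1.30–1.82). *Tshz3* was at 29.1, 18.7 and 22.5 CPM, with ratios of 0.644 (0.412–1.05) and 0.775 (0.497–1.27).

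Non-neuronal nuclei had larger ratios than cortical neurons for *Tshz1* and *Tshz2*, and not for *Tshz3*. *Tshz1* was at 37.6, 52.7 and 64.8 CPM in them, with ratios of 1.40 (1.19–1.65) and 1.72 (1.47–2.03). *Tshz2* was at 65.5, 108 and 125 CPM, with ratios of 1.65 (1.47–1.87) and 1.91 (1.70–2.16). *Tshz3* was at 26.9, 20.004 and 18.9 CPM, with ratios of 0.744 (0.599–0.926) and 0.703 (0.563–0.880). By the size rule *Tshz2* was higher in *Nav1* KO, as were 6.72% of genes, and *Tshz1* and *Tshz2* were higher in BTBR, as were 6.93%. With classes from single nuclei *Tshz1* was short of the rule in BTBR, at 1.40 (1.10–1.79), and its *Nav1* KO ratio of 1.09 was below the 1.24 of cortical neurons. The mitral or tufted marker sums given above were higher in *Nav1* KO and BTBR in the non-neuronal classes and in most cortical classes. The size of that rise differed between classes, and its part in the *Tshz1* and *Tshz2* ratios was not tested.

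In layer 6-like nuclei *Tshz2* was 1.36 times (1.17–1.58) the C57BL/6J level in *Nav1* KO and 1.68 times (1.45–1.95) in BTBR. By the size rule no member was higher in *Nav1* KO, where 4.36% of genes in this class were, and *Tshz2* was higher in BTBR, as were 7.78%. Among layer 6-like nuclei without a near-projecting marker the *Tshz2* ratio was 1.32 (1.06–1.66) in *Nav1* KO and 1.40 (1.12–1.76) in BTBR. With 2 or more of the markers it was 0.883 (0.572–1.37) and 1.76 (1.23–2.57). In *Nav1* KO the share of layer 6-like nuclei with a near-projecting marker was also higher, at 9.56% (7.76–11.6) against 6.94% (5.59–8.49) in C57BL/6J, intervals that overlap. In the finer clusters the *Tshz2* ratio was 1.61 (1.23–2.12) and 1.51 (1.15–2.01) in the *Ccn2*-led cluster, and 1.12 (0.903–1.39) and 1.74 (1.43–2.13) in the *Col12a1*-led cluster. In the remaining 184, 118 and 96 layer 6-like nuclei it went the other way, at 0.656 (0.405–1.04) and 0.674 (0.389–1.13), with intervals that cover 1. At resolution 2 and with classes from single nuclei the *Tshz2* ratio of layer 6-like nuclei in *Nav1* KO passed the size rule, at 1.57 (1.35–1.84) and 1.66 (1.38–2.00).

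Within single classes the 3 members moved in different directions relative to C57BL/6J. *Tshz3* was below its C57BL/6J level in all 10 classes with at least 20 counts in both libraries in *Nav1* KO and in all 11 such classes in BTBR. Its ratios ran from 0.635 to 0.883 with a median of 0.783 in *Nav1* KO, and from 0.529 to 0.906 with a median of 0.679 in BTBR. The counting interval of *Tshz3* lay below 1 in 1 class in *Nav1* KO, *Sst* or *Pvalb* interneuron-like nuclei (0.635, 0.451–0.886), where it was 1.34 (0.729–2.49) with classes from single nuclei. In BTBR it did so in 4 classes, medium spiny neuron-like (0.529, 0.312–0.860), *Sst* or *Pvalb* interneuron-like (0.582, 0.422–0.798), layer 2/3-like (0.679, 0.530–0.866) and unnamed excitatory nuclei (0.799, 0.699–0.915). *Tshz3* ratios below 1 were thus present in many classes, and all these ratios rest on the same C57BL/6J library. Parts of a class could differ. In the unnamed excitatory class the *Ndst4*-led cluster given above was not below its C57BL/6J level in either library. It held 502, 357 and 1315 of the 6016, 3979 and 5110 nuclei of that class. How far this make-up enters the class ratio was not tested. Outside layer 6-like nuclei, cortical neurons with exactly 1 near-projecting marker had a *Nav1* KO ratio of 1.64 (1.02–2.70). Without a marker it was 0.825 (0.744–0.915). In *Nav1* KO the median ratio over all genes was itself below 1, at 0.933 in cortical neurons and 0.952 in layer 6-like nuclei. *Tshz3* stood above 33.4% and 35.9% of genes there. In BTBR these medians were 1.02 and 1.01, and *Tshz3* stood above 11.8% and 17.7% of genes. How many genes were lower in every class was not measured.

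*Tshz2* was above its C57BL/6J level in 10 of 15 classes in *Nav1* KO and in 14 of 16 in BTBR, with medians of 1.22 and 1.57. The counting interval lay above 1 in 6 classes and below 1 in 1 in *Nav1* KO, and above 1 in 9 and below 1 in none in BTBR. The largest ratios were in astrocyte-like nuclei, at 3.88 (2.54–6.19) and 4.37 (2.86–6.96), from 24 counts in C57BL/6J. The *Tshz2* ratios of microglia-like nuclei, 1.62 and 2.00, turned to 0.824 (0.474–1.47) and 0.928 (0.558–1.59) with classes from single nuclei. *Tshz1* was above its C57BL/6J level in 8 of 11 classes in *Nav1* KO and 9 of 11 in BTBR, with medians of 1.25 and 1.31. Its largest ratios were 1.91 (1.28–2.89) in microglia-like nuclei of *Nav1* KO and 2.17 (1.38–3.51) in *Sst* or *Pvalb* interneuron-like nuclei of BTBR. In layer 2/3-like nuclei, neither gene differed beyond counting error, with *Tshz1* ratios of 0.922 (0.699–1.22) and 0.917 (0.674–1.25) and *Tshz2* ratios of 0.922 (0.591–1.45) and 0.959 (0.587–1.57).

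Genes known to act with Teashirt proteins were examined as a list of 15. Of the co-repressors and their deacetylases, *Ctbp1* was at 29.0, 32.5 and 36.5 CPM over all kept nuclei, *Ctbp2* at 55.6, 55.2 and 54.6 CPM, *Hdac1* at 18.3, 17.2 and 14.4 CPM and *Hdac2* at 34.7, 30.2 and 32.7 CPM. *Apbb1*, the adaptor FE65, was at 63.1, 56.6 and 69.8 CPM, and its partner *Set* at 57.02, 58.2 and 64.9 CPM. None of these 6 was past the size rule in either comparison over all kept nuclei. In layer 6-like nuclei of BTBR *Hdac1* was lower by the rule, at 0.543 (0.310–0.923), from 21 counts against 49 in C57BL/6J. The share of all genes lower in that class was not measured. The homeodomain and zinc finger genes differed more. In *Nav1* KO the genes past the rule were *Meis1* (1.67, 1.46–1.91), *Pbx3* (1.84, 1.76–1.93), *Pax6* (2.30, 2.08–2.53), *Sall1* (2.62, 2.12–3.25), *Sall3* (3.11, 2.54–3.84) and *Prokr2* (1.64, 1.10–2.48), all higher. In BTBR they were *Meis1* (2.64, 2.33–3.005), *Pbx3* (2.14, 2.04–2.24), *Pax6* (2.76, 2.51–3.04), *Sall1* (2.32, 1.87–2.89) and *Sall3* (3.02, 2.46–3.73).

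Over all kept nuclei 6 of the 15 were thus higher in *Nav1* KO and 5 in BTBR, where 9.30% and 11.1% of all genes were. None of the 15 was lower by the rule in either comparison, where 7.37% and 8.12% of all genes were. For a list of this length that count is near those shares. The median ratio of the list was 1.12 in *Nav1* KO and 1.26 in BTBR, against 0.966 and 1.03 over all genes. Without bulb-type nuclei 4 and 5 of the 15 were higher, where 9.13% and 11.6% of all genes were. In cortical neurons 1 and 4 of the 14 with enough counts were higher, where 3.68% and 8.24% of all genes were, and the single gene of *Nav1* KO was *Sall1*, a count near that share. *Meis1*, a gene of the same network as *Tshz1*, had its highest pooled level in bulb interneuron-like nuclei, at 65.8 CPM. *Pbx3* at 404 CPM and *Meis2* at 1148 CPM were also highest there. Both are on the marker list that named this class, so their place there follows from the naming and is not a separate result. *Pax6* was highest in astrocyte-like nuclei, at 187 CPM. *Prokr2*, the receptor gene linked to *Tshz1*, did not exceed 5.44 CPM in any class.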

How the data were processed

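The authors deposited, for each of the 3 libraries, a matrix of raw UMI counts per gene and barcode, made with Cell Ranger 6.0.0 on mm10 per the labels. Whether intronic reads were counted is not given in the sources used here. A nucleus was kept when it held 200 or more genes and when mitochondrial genes gave less than 10% of its counts. Both were taken over genes found in at least 3 nuclei of the library, and clustering set a higher limit of nuclei per gene. The libraries were merged without integration and clustered with scanpy 1.11.5 (Python 3.11.15; 2000 variable genes, 30 components, 15 neighbours, Leiden resolution 1), leaving the *Tshz* genes out. Clusters were named from 27 marker lists that hold no *Tshz* gene, where the median fold of a list was at least 1.8, a limit set after the data were seen. Members and lists were chosen with earlier results of these data known.

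Counts were summed per class and library. CPM carries an exact Poisson interval, a share a Clopper-Pearson interval, and a ratio an exact interval from the binomial split of the counts (scipy 1.17.1), all at 95%. A size rule of at least 1.5-fold with at least 20 counts in both libraries stood in for a test. For shares of nuclei with a count, nuclei were thinned to 1000 UMIs each, without the 2394, 1249 and 2096 shallower nuclei of the 3 libraries, and the limit for a count of 0 was 3 counts. Genes named were the members, markers, 15 partner genes and, per member, the 5 genes most correlated in log2(CPM + 5) among those of at least 50 CPM in a class of at least 50 nuclei. Of these, 1 gene is not reported here. Gene spans are from GENCODE M21. The size rule and the ratio interval were tested on simulated Poisson counts of whole libraries, without differences between nuclei or mice. The other steps were not tested in this way.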

Additional observations from a re-analysis of the deposited data

Results flagged for a closer look

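Relative to C57BL/6J, the members differed in opposite directions between classes in 2 cases. In BTBR, *Tshz1* was at 0.764 times (0.603–0.982) its C57BL/6J level in bulb interneuron-like nuclei and at 2.17 times (1.38–3.51) in *Sst* or *Pvalb* interneuron-like nuclei. In *Nav1* KO, *Tshz2* was at 0.668 times (0.470–0.975) its C57BL/6J level in bulb interneuron-like nuclei and at 3.88 times (2.54–6.19) in astrocyte-like nuclei. They were picked out because the counting intervals lie on opposite sides of 1. The first case turned with the processing, as the *Tshz1* ratio in bulb interneuron-like nuclei of BTBR was 1.14 (0.904–1.44) at resolution 0.5 and 1.82 (1.47–2.27) with classes set by marker counts of single nuclei. In the second, the *Tshz2* ratio in bulb interneuron-like nuclei was 0.976 (0.808–1.18) with the latter classes and 0.732 (0.515–1.07) without mitochondrial genes and *Malat1* in the totals, and the intervals cover 1. With 1 library per group the difference between classes was not tested.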

How the results depend on the processing

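No paired analysis was possible because each group has 1 pooled library. Of 558 ratios recomputed under the alternatives, 513 stayed on the same side of 1 and 45 did not. Those of bulb-type nuclei were added after seeing the data. The direction turned 9 times for a ratio whose counting interval excluded 1 or that was past the fold. With classes set by marker counts of single nuclei, *Tshz1* turned to 1.82 in bulb interneuron-like nuclei of BTBR and 1.65 in bulb-type nuclei of *Nav1* KO, *Tshz2* to 0.824 and 0.928 in microglia-like nuclei of *Nav1* KO and BTBR and to 0.755 in layer 5 extratelencephalic-like nuclei of BTBR, and *Tshz3* to 1.34 in *Sst* or *Pvalb* interneuron-like nuclei of *Nav1* KO. At resolution 0.5 *Tshz1* turned to 1.14 in bulb interneuron-like nuclei of BTBR and 1.07 in bulb-type nuclei of *Nav1* KO. Without the highest Scrublet scores *Tshz2* turned to 0.875 in oligodendrocyte-like nuclei of *Nav1* KO. A filter of at least 500 genes and under 5% mitochondrial counts moved none of the 33 main levels, ratios and shares beyond its counting interval. Triplets keep the order of libraries used above. The cause of a shift was not tested. Leaving mitochondrial genes and *Malat1* out of the totals put *Tshz2* at 632, 626 and 687 CPM in mitral or tufted cell-like and 133, 193 and 228 CPM in layer 6-like nuclei, *Tshz1* at 174, 149 and 137 CPM in bulb interneuron-like nuclei, and *Tshz3* at 46.8, 42.8 and 34.5 CPM in cortical neurons, with *Tshz2* ratios in *Nav1* KO of 2.01 over all nuclei and 1.59 without bulb-type nuclei. At resolution 0.5 *Tshz1* in bulb interneuron-like nuclei of C57BL/6J was at 86.6 CPM, and the bulb-type shares of C57BL/6J were 9.99% for *Tshz2* and 3.35% for *Tshz3*. At resolution 2 *Tshz2* in layer 6-like nuclei of *Nav1* KO was at 155 CPM, *Tshz1* in bulb interneuron-like nuclei was at 197, 126 and 168 CPM, and the bulb-type shares were 7.31%, 36.4% and 24.4% for *Tshz1*, 6.20%, 36.8% and 23.4% for *Tshz2* and 1.06%, 11.4% and 7.16% for *Tshz3*. With classes set by marker counts of single nuclei, *Tshz2* was at 454 CPM in mitral or tufted cell-like nuclei of BTBR and 61.7, 102 and 98.3 CPM in layer 6-like nuclei, and *Tshz1* was at 50.9, 88.3 and 92.7 CPM in bulb interneuron-like nuclei. The *Tshz2* ratios without bulb-type nuclei were then 1.76 in *Nav1* KO and 1.94 in BTBR, and the bulb-type shares were 33.5% for *Tshz1* in BTBR, 11.4%, 28.8% and 26.2% for *Tshz2*, and 4.49% for *Tshz3* in C57BL/6J. Averaging each nucleus's own CPM gave 529 CPM of *Tshz2* in mitral or tufted cell-like nuclei of *Nav1* KO, 137, 198 and 232 CPM of *Tshz2* in layer 6-like nuclei, and 223, 166 and 193 CPM of *Tshz1* in bulb interneuron-like nuclei. Leaving out the 10% of nuclei with the highest Scrublet scores gave 524 CPM of *Tshz2* in mitral or tufted cell-like nuclei of *Nav1* KO, 182, 119 and 117 CPM of *Tshz1* in bulb interneuron-like nuclei, a *Tshz2* ratio of 1.35 without bulb-type nuclei in *Nav1* KO, and bulb-type shares in *Nav1* KO of 44.4% for *Tshz1*, 42.0% for *Tshz2* and 11.2% for *Tshz3*. Shares of nuclei with a count depend on depth, and 8 of 9 moved when thinned to 500 UMIs or not thinned. With at least 100 counts in both libraries, the share of all genes past the size rule over all kept nuclei was 5.63% higher and 4.82% lower in *Nav1* KO, and 8.14% higher and 5.45% lower in BTBR. Without bulb-type nuclei it was 5.42% and 4.56%, and 8.24% and 5.26%. The shares higher were 2.31% and 6.10% in cortical neurons, 2.84% and 4.14% in non-neuronal nuclei, and 1.94% and 4.32% in layer 6-like nuclei. Depth limits the classes of few nuclei, such as the 39 mitral or tufted cell-like and 25 ensheathing glia-like nuclei of C57BL/6J, whose intervals are wide.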
